A study of Mus musculus with 24 samples.

Results

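Cartilage that will turn into bone passes through a hypertrophic stage, in which chondrocytes enlarge and change the matrix they make, while osteoblasts form in the tissue around it. The 9 genes described here mark those stages: the transcription factor genes Mef2c, Sp7, Dlx5 and Dlx6, the receptor gene Fgfr3, the channel gene Panx3, and Alpl, Ibsp and Spp1, which serve the mineralizing matrix. They were chosen by name, and each of the 9 symbols matched exactly 1 of the 25844 genes in the joined tables. Expression had been measured by sequencing poly-A RNA of CD1 mouse forelimb buds, taken at gestation day 13 and kept in culture for 3 or 24 h. The cultures held the solvent DMSO alone (control) or 1 or 10 µM BPDP (tert-butylphenyl diphenyl phosphate), an organophosphate ester that serves as a flame retardant and plasticizer. The strain and tissue were the same in all 6 groups, and each group had 4 libraries. The series title names hedgehog signalling as the question, and Indian hedgehog from cartilage is a textbook signal in the control of both hypertrophy and bone formation.

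In the growth plate, Runx2 and Mef2c switch chondrocytes toward hypertrophy, and Sp7, also called osterix, acts after Runx2 in the making of osteoblasts. Dlx5 and Dlx6 lie next to each other in the genome, and act in limb outgrowth as well as in the maturation of cartilage and bone. Fgfr3 restrains the growth of cartilage. Mef2c also works in muscle and vessels, and Spp1 in macrophages and osteoclasts. These are whole limb buds, so fewer cells of a type and less RNA per cell cannot be told apart behind a lower level.

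Total counts ran from 14165947 to 20823058 per library. Levels are given as CPM, the count of a gene divided by the total of its library and multiplied by 1000000, and group values as mean ± SD of n = 4. No label ties a replicate to a litter or culture of its own, so p-values here measure only the spread between these samples, which may be technical. Replicates 1 and 2 stood apart from replicates 3 and 4 for several of the 9 genes, most of all for Ibsp at 3 h, and the values within each pair are given where they bear on a call. A gene is called changed where edgeR's quasi-likelihood test, adjusted by Benjamini and Hochberg over all genes tested, gave a p under 0.05. All 9 genes passed the filter on low counts in every comparison. Comparisons at one time share the control libraries, and those over time share libraries with those between doses, so they are not independent of each other.

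The clearest movement was between the times. In control limb buds 4 of the 9 genes rose from 3 to 24 h, namely Mef2c, Alpl, Fgfr3 and Sp7, where 5.45% of all 15640 genes tested were called higher and 4.1% lower. None fell. Within replicates 1 and 2 alone none of the 4 was called. Within replicates 3 and 4 alone none of the 4 lost its call, and Panx3 and Ibsp were called too (adjusted p = 0.0128 and 0.00706). The median log2 fold change of the 9 genes was 0.93, and that of all genes 0.01.

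Mef2c (chromosome 13, 83504034 to 83667079, plus strand, in mm10, as are all positions of genes below) had the smallest standard error of the 9 genes. Its level was 129, 94.2, 99.1 and 87.6 CPM in the control replicates 1 to 4 at 3 h, and 169.5, 191, 187 and 222 CPM at 24 h. All 4 later libraries lay above all 4 earlier ones. It rose by 0.93 on the log2 scale (SE 0.121, adjusted p = 0.000519). With BPDP it rose by nearly the same amount, by 1.02 with 1 µM (SE 0.073, adjusted p = 2.89e-07) and 0.92 with 10 µM (SE 0.0731, adjusted p = 1.72e-07). The rise of Mef2c ran beside that of skeletal muscle markers: 6 of 8 of them rose in the controls, and their summed level was 1357 to 1567 CPM at 3 h and 2143 to 3105 CPM at 24 h. The part of muscle in the result was not tested. The family relatives Mef2a and Mef2d also rose in the controls, by 0.58 and 0.51.

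Sp7 (chromosome 15, 102356609 to 102366325, minus strand) had 14.8, 15.0, 12.4 and 8.83 CPM in the controls at 3 h and 14.6, 31.7, 17.8 and 19.2 CPM at 24 h. Replicate 1 at 24 h lay within the earlier values. The rise of 0.72 (SE 0.204, adjusted p = 0.0422) kept its call only without replicate 1 or 3 at 24 h among the 8 cases with 1 library left out, with adjusted p-values up to 0.137. With 1 and 10 µM the log2 fold changes of 0.43 and 0.26 had adjusted p-values of 0.157 and 0.38. Dlx5 (chromosome 6, 6877805 to 6882085, minus strand) had a log2 fold change of 0.26 in the controls (adjusted p = 0.29). With 10 µM BPDP it fell by 0.47 over the same time (SE 0.124, adjusted p = 0.00919), with no overlap between the times and a call in all 8 cases with 1 library left out, but not within replicates 1 and 2 (adjusted p = 0.202). Dlx6 (chromosome 6, 6863334 to 6868568, plus strand) had 4.95, 7.17, 6.35 and 5.97 CPM with 10 µM at 3 h and 3.52, 3.48, 4.15 and 3.37 CPM at 24 h, all below. It fell by 0.65 (SE 0.21, adjusted p = 0.0284), a call that held only without replicate 1 at 3 h or replicate 3 at 24 h among the 8 cases with 1 library left out, with adjusted p-values up to 0.097. In the controls its log2 fold change was -0.02 (adjusted p = 0.969). With 1 µM neither Dlx gene was called over time, with adjusted p = 0.142 for Dlx5 and 0.0579 for Dlx6. DESeq2 called Dlx6 lower there (-0.53, adjusted p = 0.0389). So did edgeR once the fit held the replicate pair (-0.51, adjusted p = 0.0488). Dlx5 was called lower within replicates 3 and 4 (-0.47, adjusted p = 0.0208) and without replicate 1 at 3 h (0.0469). Elsewhere the adjusted p reached 0.92 for Dlx5 and 0.561 for Dlx6.

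Fgfr3 (chromosome 5, 33721724 to 33737068, plus strand) had 106.5, 127, 100.5 and 80.2 CPM in the controls at 3 h and 180.5, 211, 129 and 154 CPM at 24 h. Every later library exceeded every earlier one, and the rise was 0.72 on the log2 scale (SE 0.13, adjusted p = 0.00374). With 1 and 10 µM the gene rose by 1.07 in both, again with no overlap between the times.

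Alpl, the tissue-nonspecific alkaline phosphatase that frees phosphate for mineral (chromosome 4, 137741733 to 137796384, minus strand), had 17.6, 16.4, 10.2 and 6.14 CPM in the controls at 3 h and 27.5, 39.8, 32.7 and 27.6 CPM at 24 h. The times did not overlap. It rose by 1.37 on the log2 scale (SE 0.256, adjusted p = 0.00691), and by 1.03 and 1.15 with 1 and 10 µM BPDP. At 1 µM (adjusted p = 0.0334) the call was lost in 5 of 8 cases with 1 library left out, namely without replicate 2, 3 or 4 at 3 h or replicate 1 or 2 at 24 h, with adjusted p-values up to 0.0987.

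Panx3, a pannexin that forms channels in the membranes of prehypertrophic chondrocytes and osteoblasts (chromosome 9, 37659902 to 37669222, minus strand), had 22.0, 13.1, 6.5 and 10.8 CPM in the controls at 3 h and 25.2, 55.3, 35.9 and 26.6 CPM at 24 h. The values did not overlap, but the test just missed the threshold (log2 fold change 1.45, SE 0.38, adjusted p = 0.0506). With BPDP the gene rose in both doses, by 1.74 at 1 µM (SE 0.376, adjusted p = 0.0165) and 1.56 at 10 µM (SE 0.327, adjusted p = 0.00742). Without control replicate 1 at 3 h, the library with the highest early level, the adjusted p in the controls was 0.0086, and without any other single library it stayed above 0.05, at up to 0.156.

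Ibsp, bone sialoprotein, which binds hydroxyapatite and helps mineral to form (chromosome 5, 104299171 to 104311469, plus strand), moved furthest and varied most. At 3 h its control level was 15.5 and 9.18 CPM in replicates 1 and 2 but 0.65 and 0.31 CPM in replicates 3 and 4, which rest on 12 and 6 counts. At 24 h it was 66.9, 279, 94.4 and 53.3 CPM. Every later library exceeded every earlier one, and the log2 fold change of 4.28 had an SE of 1.14 and an adjusted p of 0.0735. With 1 µM BPDP it went from 7.63, 10.9, 0.384 and 0.832 CPM to 256, 294, 64.5 and 44.0 CPM, which was called (5.09, SE 1.15, adjusted p = 0.0246). That call was lost in 4 of 8 cases with 1 library left out, namely without replicate 1, 3 or 4 at 3 h or replicate 1 at 24 h, with adjusted p-values up to 0.0689. With 10 µM the 3 h libraries had 17.9, 4.44, 0.282 and 0.486 CPM and those at 24 h 120.2, 173, 42.9 and 7.89 CPM, so that replicate 4 at 24 h lay below replicate 1 at 3 h. The log2 fold change there was 3.97 (SE 1.31, adjusted p = 0.0656, and 0.0294 with replicate number as a block). It was also called without replicate 1 at 3 h (0.0446) or replicate 4 at 24 h (0.0437).

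Spp1, osteopontin, a phosphorylated matrix protein that binds mineral and bone cells (chromosome 5, 104435118 to 104441050, plus strand), lies on the same chromosome as Ibsp and in the same direction. Its control level was 2.43, 4.7, 2.71 and 1.19 CPM at 3 h and 27.6, 14.8, 3.48 and 5.26 CPM at 24 h, with an overlap between the times. This gave a log2 fold change of 2.26 (SE 0.727, adjusted p = 0.106). With 1 µM it rose by 2.62 (SE 0.741, adjusted p = 0.0477), a call that was lost with the replicate block (adjusted p = 0.154). With 1 library left out it held only without replicate 3 or 4 at 24 h, with adjusted p-values up to 0.125 in the other 6 cases. With 10 µM it had a log2 fold change of 2.40 and an adjusted p of 0.054, which was 0.00424 without replicate 3 at 24 h.

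Only 5 of the 9 genes (Mef2c, Fgfr3, Alpl, Ibsp and Spp1) had a promoter in the RefSeq table for GRCm38.p6, the assembly of mm10. In the 250 bases before the start nearest to the deposited gene start of each, a script looked on both strands for TGTGGT, the core letters of RUNX sites, GACCACCCA, the GLI consensus, and TAATTA, a homeodomain core such as DLX proteins use. Among all 32851 windows of this length in the table these letters stood in 14.0%, 0.225% and 4.84%. Spp1 alone of the 5 held a match, 1 RUNX core on the minus strand that begins 128 bases before the start. Its window is shown because Spp1 is a textbook RUNX2 target, and the choice was made after the match was seen. It covers chr5:104434861-104435110 on the plus strand and is written 5′ to 3′ with the match in capitals. The window of Fgfr3, the only gene with a promoter in the table that was called with 10 µM at 24 h, covers chr5:33721474-33721723 on the plus strand and holds none of the 3 motifs.
Spp1: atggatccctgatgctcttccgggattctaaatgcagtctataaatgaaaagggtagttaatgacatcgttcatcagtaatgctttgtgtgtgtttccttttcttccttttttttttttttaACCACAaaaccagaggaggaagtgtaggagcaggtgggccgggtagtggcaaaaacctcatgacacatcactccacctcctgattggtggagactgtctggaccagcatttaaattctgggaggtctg
Fgfr3: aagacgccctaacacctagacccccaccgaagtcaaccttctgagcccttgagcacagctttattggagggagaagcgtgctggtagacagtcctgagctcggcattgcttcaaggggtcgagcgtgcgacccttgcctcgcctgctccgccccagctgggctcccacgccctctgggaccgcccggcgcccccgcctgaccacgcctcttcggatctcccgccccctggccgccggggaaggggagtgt
Further starts in the table for Mef2c and Spp1 had 1 window each with TAATTA. A match describes letters and is no evidence of binding.

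**Figure D1:**
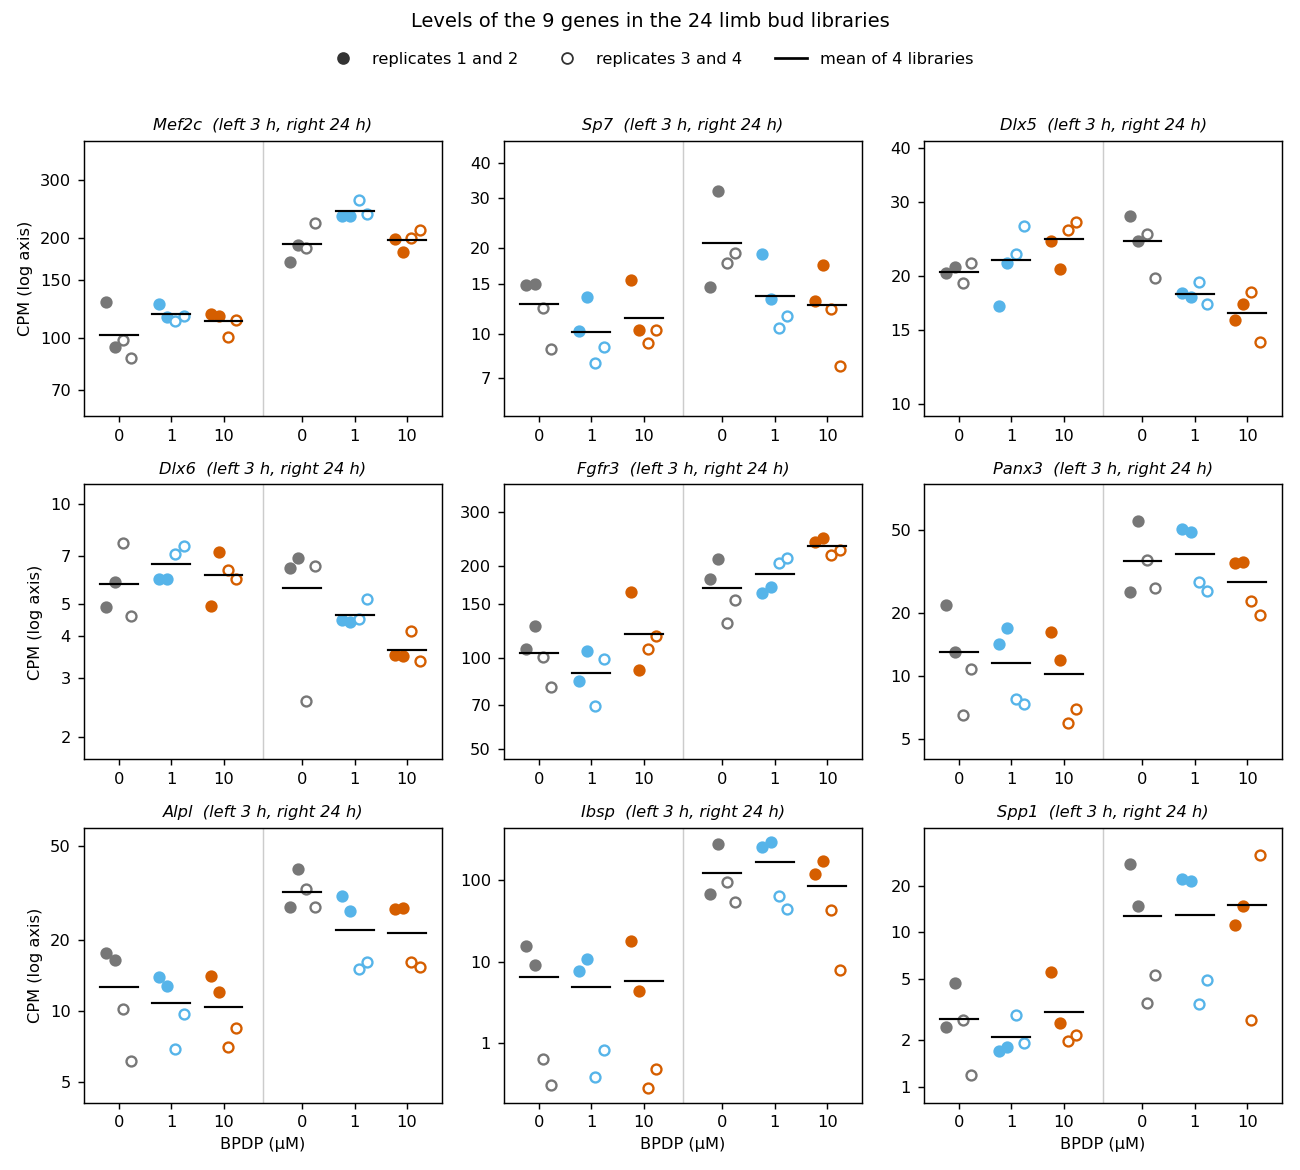
Level of each of the 9 genes in CPM (log axis, a separate range for each gene) in every library, by BPDP dose in µM, with 3 h on the left and 24 h on the right of each panel. Filled points are replicates 1 and 2, open points replicates 3 and 4, and lines the mean of 4. Ibsp ranges from 0.282 to 294 CPM, and its open points at 3 h lie below its filled ones in all 3 groups.

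The order of the genes by level per length differed between the times. In controls at 3 h Fgfr3 led with 24.4 ± 4.52 CPM per kilobase of gene length, before Mef2c with 15.9 ± 2.82 and Dlx5 with 14.4 ± 0.668, and Spp1 was last with 1.83 ± 0.967. Fgfr3 overlapped with Mef2c, and Mef2c with Dlx5. At 24 h Ibsp, which had rank 7 at 3 h, came first with 59.6 ± 50.7 CPM per kilobase, but overlapped with Fgfr3 at 39.8 ± 8.23, and Fgfr3 with Mef2c at 29.9 ± 3.37. Dlx6 was then the lowest, with 2.53 ± 0.918. In the cultures with 10 µM at 24 h Fgfr3 led with 54.5 ± 3.16 CPM per kilobase, before Ibsp with 41.5 ± 36.0, and those also overlapped.

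With 1 µM 6 of the 9 genes rose from 3 to 24 h (Mef2c, Fgfr3, Panx3, Alpl, Ibsp and Spp1), where 12.2% of all genes were called higher and 9.9% lower. With 10 µM 4 rose (Mef2c, Fgfr3, Panx3 and Alpl) and the 2 Dlx genes fell, where 16.8% of all genes were called higher and 14.9% lower. Chondrocyte markers rose beside them: 8 of 10 in the controls, 9 with 1 µM and 8 with 10 µM. The summed level of these markers in the controls was 4018 to 5913 CPM at 3 h and 7376 to 11941 CPM at 24 h, without overlap. Their part in the rise of the 9 genes was not tested.

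**Figure D2:**
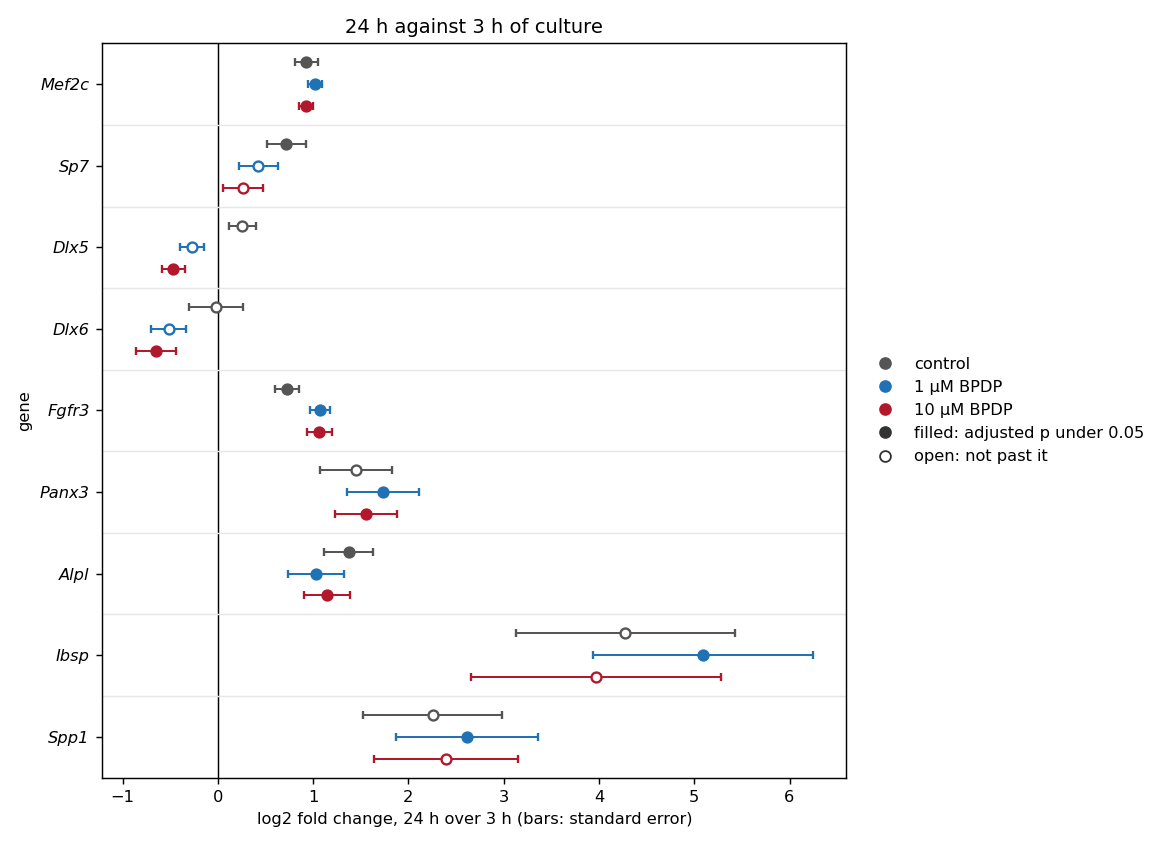
Log2 fold change of each gene from 3 to 24 h in control, 1 µM and 10 µM cultures (horizontal axis, bars are standard errors, filled points passed an adjusted p of 0.05). Ibsp has the largest values, from 3.97 to 5.09, with the widest errors, and only the Dlx genes have filled points below 0.

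Of the other genes of mineralizing tissue on a list of 38, 9 rose and 1 fell in the controls among 32 tested, with a median log2 fold change of 0.43. Runx2, the main regulator of osteoblasts and hypertrophic cartilage, rose by 0.62 (adjusted p = 0.011). Besides the protease gene Mmp9 (1.77), the largest rises were those of Ifitm5, a membrane protein of osteoblasts (1.86), and Omd, the matrix proteoglycan osteomodulin (1.72). The forkhead gene Foxa3 rose by 1.25. The 1 gene that fell, named after its value was seen, was the homeobox gene Msx2 (-1.0, SE 0.264, adjusted p = 0.041). Runx3, Ihh and Pth1r had log2 fold changes of 0.59, 0.46 and -0.01 and did not pass. Col10a1, the collagen that defines hypertrophic cartilage, had 15.7, 10.1, 3.9 and 2.99 CPM at 3 h and 149, 134, 24.4 and 12.8 CPM at 24 h (3.32, adjusted p = 0.108). With 1 and 10 µM its rise over time was called, at 4.80 (adjusted p = 0.00323) and 3.80 (adjusted p = 0.0127). Bglap, Bglap2, Mepe and Phospho1, markers of more mature bone, did not pass the count filter in the comparison of the controls. Of the same list 18 rose and 4 fell with 1 µM among 31 tested, where 12.2% of all genes were called higher. With 10 µM 21 rose and 2 fell among 32 tested, where 16.8% of all genes were called higher.

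At 24 h with 10 µM BPDP, Dlx5 was lower and Fgfr3 higher than in the controls, where 3.44% of all 15508 genes were called lower and 2.77% higher. The other 7 genes did not pass in this fit, which held no replicate term. With replicate number as a block Sp7 and Alpl passed too (adjusted p = 0.0149 and 0.0226). In the fit without a replicate term the median log2 fold change over the 9 was -0.47, against -0.02 over all genes. That middle value was the one of Ibsp, whose spread among libraries was too wide to show a change of moderate size.

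Dlx5 had 27.7, 24.2, 25.2 and 19.9 CPM in control replicates 1 to 4 at 24 h, and 15.8, 17.2, 18.4 and 14.1 CPM with 10 µM. Every treated library lay below every control. The log2 fold change was -0.55 (SE 0.146, adjusted p = 0.0412, and 0.0126 with the replicate block). With 1 library left out the call held only without control replicate 2 or 4, and the adjusted p reached 0.127 in the other 6 cases. Over all other alternatives it ranged from 0.00424 to 0.36, the highest within replicates 1 and 2. Within replicates 3 and 4 it was 0.194, so Dlx5 was called in neither pair alone. At 3 h the controls had 20.3, 21.0, 19.3 and 21.5 CPM and the 10 µM cultures 24.2, 20.8, 25.8 and 26.9 CPM, a log2 fold change of 0.18 (adjusted p = 0.48). The effect of 10 µM at 24 h minus that at 3 h was -0.73 (SE 0.182, adjusted p = 0.0238), the 1 such difference called among the 9 genes, where 2.59% of all 16691 genes were called. Of 16 cases with 1 library left out it missed the threshold in 6 (control replicates 1 and 3 and 10 µM replicates 3 and 4 at 3 h, and 10 µM replicates 1 and 4 at 24 h), with adjusted p-values up to 0.0617.

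Dlx6 had 6.44, 6.88, 2.56 and 6.51 CPM in the controls and 3.52, 3.48, 4.15 and 3.37 CPM with 10 µM. Control replicate 3 lay below all treated libraries and the other 3 above them, so the groups overlapped. The log2 fold change of -0.60 had an SE of 0.29 and an adjusted p of 0.262. Without control replicate 3 the adjusted p was 0.0586. The antisense gene Dlx6os1 covers the whole 5235 bases of Dlx6 and had 771 counts over the 24 libraries against 2283 for Dlx6, and since the sources used here do not say whether counting used the strand, reads of the pair cannot be told apart. A second antisense gene, Dlx6os2, overlaps it by 1354 bases and had 31 counts. In the same libraries Dlx6os1 had 2.31 ± 0.241 CPM in the controls and 2.33 ± 0.721 CPM with 10 µM.

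Among the relatives Dlx1, Dlx2, Dlx3 and Dlx4 none was called, and their log2 fold changes were -0.74, -0.44, -0.58 and -0.49. Dlx3, the best measured of them, had 24.2 ± 6.45 CPM in the controls and 16.1 ± 2.18 CPM with 10 µM (adjusted p = 0.114). For each of the 4 the mean CPM without further scaling was also lower with 10 µM.

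Fgfr3 had 180.5, 211, 129 and 154 CPM in the controls at 24 h and 238, 246, 217 and 224 CPM with 10 µM. Every treated library exceeded every control, the lowest by a small margin. The log2 fold change was 0.48 (SE 0.113, adjusted p = 0.0257, and 0.00217 with the replicate block), and with 1 library left out the call held only without control replicate 1, 2 or 3, with adjusted p-values up to 0.0819. Over all other alternatives the adjusted p ranged from 0.00197 to 0.385, the highest within replicates 1 and 2, and it was 0.0612 with no scaling factors. The 10 µM effect on Fgfr3 at 24 h minus that at 3 h was 0.34 (SE 0.191, adjusted p = 0.453). Of its relatives Fgfr2 was lower with 10 µM at 24 h, at 131 ± 2.25 CPM against 178 ± 28.1 CPM (log2 fold change -0.44, adjusted p = 0.0323), while Fgfr1 and Fgfr4 had 0.14 and 0.19 and did not pass. Mean CPM without further scaling had the same directions for all 4 receptors.

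Sp7 had 13.1, 17.5, 12.2 and 7.69 CPM with 10 µM at 24 h against the control values of 14.6, 31.7, 17.8 and 19.2 CPM given above. It was lower in 4 of 4 pairs with the same replicate number, with overlapping groups. The log2 fold change was -0.69 (SE 0.248, adjusted p = 0.136). The gene was called with the replicate block (adjusted p = 0.0149) and within replicates 3 and 4 (-0.88, adjusted p = 0.0471), and over the other alternatives the adjusted p reached 0.643, within replicates 1 and 2.

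Alpl had 27.1, 27.3, 16.1 and 15.3 CPM with 10 µM against 27.5, 39.8, 32.7 and 27.6 CPM in the controls. The groups did not overlap, but treated replicates 1 and 2 almost reached the lowest control, while replicates 3 and 4 were well below. Its log2 fold change was -0.55 (SE 0.191, adjusted p = 0.118), and it was called with the block (adjusted p = 0.0226). Within replicates 1 and 2 the log2 fold change was -0.27 (adjusted p = 0.666) and within replicates 3 and 4 it was -0.93 (adjusted p = 0.00787). So with replicate number as a block 4 of the 9 genes were called in this comparison, Dlx5, Sp7 and Alpl lower and Fgfr3 higher. The block also called more of all 15508 genes, 1645 against 533 lower and 430 higher without it.

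Panx3 had 34.8, 35.4, 22.9 and 19.6 CPM with 10 µM, within and below the control range of 25.2 to 55.3 CPM (log2 fold change -0.31, adjusted p = 0.555). Mef2c differed by 0.05 (95% interval -0.13 to 0.24). For Ibsp and Spp1 the spread among libraries was too wide to show a change of moderate size. Their log2 fold changes were -0.47 (95% interval -2.33 to 1.4) and 0.25 (95% interval -1.51 to 2.0). Spp1 in treated replicate 4 was 31.7 CPM, on 498 counts, the highest of the 24 libraries, while in replicate 3 it was 2.69 CPM. Ibsp in that same replicate 4 had 7.89 CPM, the lowest at 24 h. The summed level of 6 osteoclast markers, cells that also make Spp1, was 188, 185, 86.8 and 85.1 CPM in treated replicates 1 to 4, and 63.0 to 78.6 CPM in the controls. With 10 µM Mmp9 made up 99.7 CPM of a mean sum of 136 CPM. The part of osteoclasts in the Spp1 values was not tested.

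**Figure D3:**
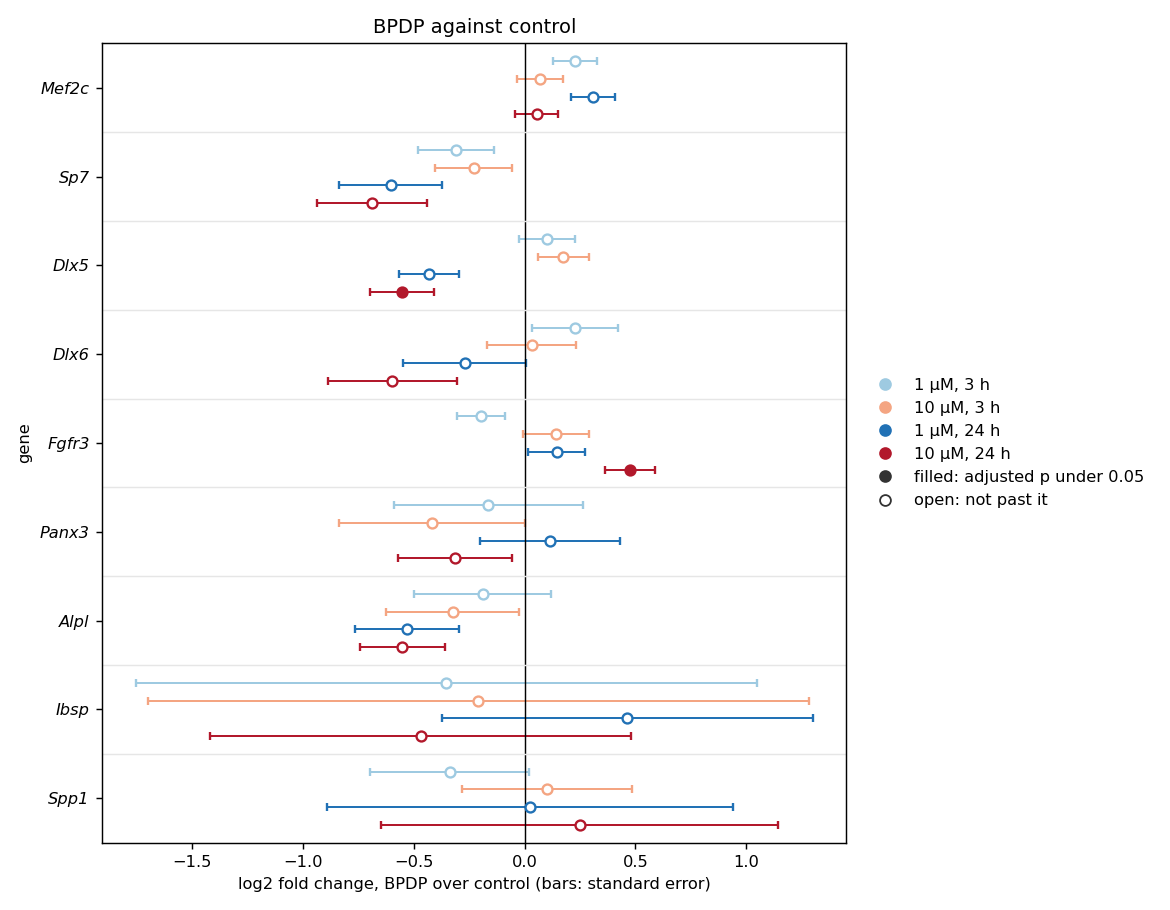
Log2 fold change of BPDP over control for each gene at both doses and times (horizontal axis, bars are standard errors, filled points passed an adjusted p of 0.05). The only filled points are Dlx5 and Fgfr3 with 10 µM at 24 h, at -0.55 and 0.48, and the errors of Ibsp and Spp1 are several times wider than those of Mef2c.

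Of the other genes of mineralizing tissue, 5 of 34 tested were higher and 2 lower with 10 µM at 24 h, with a median of 0.15. Runx2 was lower, at 28.5 ± 6.09 CPM against 51.3 ± 8.31 CPM (log2 fold change -0.83, SE 0.149, adjusted p = 0.00586), and Runx3 by -1.90. Ihh, the hedgehog ligand of prehypertrophic cartilage, was higher by 1.85 and Pth1r, which receives the PTHrP signal that holds back hypertrophy, by 0.59. The transcription factor genes Atf4, Foxa3 and Mef2a were higher by 0.64, 0.57 and 0.30. Col10a1 had 141, 167, 46.8 and 35.6 CPM, against the control values of 149, 134, 24.4 and 12.8 CPM (0.32, adjusted p = 0.902).

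Markers of other cell types also moved in this comparison. Of 9 macrophage markers 6 were lower, among them Csf1r (-1.88) and C1qa (-2.57), and their summed level was 61.4 to 88.9 CPM with 10 µM against 156 to 210.2 CPM. Of 8 endothelial markers 4 were lower, among them Cdh5 (-0.77) and Pecam1 (-0.72), with sums of 188 to 215 CPM against 275 to 334 CPM. Of 4 osteoclast markers tested 1 was higher, Atp6v0d2 (1.53), and the sums over 6, which include Mmp9, did not overlap between the groups, as given above. Acp5, Ctsk and Mmp9 did not pass. The 10 µM effect at 24 h minus that at 3 h was -0.69 for Acp5, 0.18 for Ctsk, 1.67 for Mmp9 and 2.58 for Atp6v0d2, with none called. Atp6v0d2 was at 0 in 6 of the 24 libraries and reached at most 2.63 CPM, so its values lie near the floor. Dcstamp was at 0 in 17 of the 24 libraries and Ocstamp in 9, and neither Acp5 nor Ctsk was at 0 in any. Of 9 ectoderm markers tested 2 were lower, Krt5 (-1.26) and Grhl3 (-1.55), with sums over 10 of 711 to 977 CPM against 1080 to 1694 CPM. None of 10 chondrocyte, 6 perichondrium and tendon or 8 skeletal muscle markers was called, and their sums overlapped between the groups (chondrocyte 10233 to 14260 CPM against 7376 to 11941 CPM). The part of these cells in the values of the 9 genes was not tested.

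With 1 µM at 24 h none of the 9 genes was called by edgeR or by DESeq2, where 0.077% of all 15578 genes were. At an unadjusted p under 0.05 there were 4, where 5.89% of all genes had one. Dlx5 had 18.3, 17.9, 19.4 and 17.2 CPM, below all controls (log2 fold change -0.43, SE 0.137, adjusted p = 0.552). Mef2c had 233, 234, 260.5 and 236 CPM, above all controls (0.31, SE 0.0991, adjusted p = 0.555). The others were Sp7 (-0.61, adjusted p = 0.719) and Alpl (-0.53, adjusted p = 0.815), in both of which the groups overlapped. Within replicates 3 and 4 Alpl was called (-1.03, adjusted p = 0.033). Of the other genes of mineralizing tissue Ihh was higher (1.49) and Runx3 lower (-2.08) with 1 µM.

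Setting the doses side by side, Dlx5 at 24 h had 24.2 ± 3.27, 18.2 ± 0.916 and 16.4 ± 1.86 CPM with 0, 1 and 10 µM, and Dlx6 had 5.60 ± 2.03, 4.65 ± 0.347 and 3.63 ± 0.354 CPM. Fgfr3 had 169 ± 34.9, 188 ± 24.3 and 231 ± 13.4 CPM. For Sp7 the values were 20.8 ± 7.49, 13.6 ± 3.86 and 12.6 ± 4.01 CPM, and for Alpl 31.9 ± 5.80, 22.1 ± 7.76 and 21.4 ± 6.63 CPM. Between 10 and 1 µM at 24 h none of the 9 genes was called by edgeR or DESeq2, where edgeR called 3.35% of all genes. An unadjusted p under 0.05 was found for 2 of the 9 and for 16.5% of all genes. Those 2 were Fgfr3 (log2 fold change 0.33, 95% interval 0.06 to 0.59, adjusted p = 0.204) and Mef2c (-0.26, 95% interval -0.44 to -0.08, adjusted p = 0.135), in both of which the doses did not overlap. With only the 8 libraries of these doses in the fit, Fgfr3 was called (adjusted p = 0.0416). For Sp7 and Alpl the intervals of the difference between doses were -0.55 to 0.37 and -0.62 to 0.56.

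After 3 h no gene of the 9 was called at either dose by edgeR or DESeq2. With 10 µM 0.00644% of all genes were called, and none of the 9 had an unadjusted p under 0.05, where 15.5% of all genes had one. With 1 µM 0% of all genes were called, and 1 of the 9, Mef2c, had an unadjusted p under 0.05 (log2 fold change 0.23, adjusted p = 0.947), where 5.19% of all genes had one. Between the doses at 3 h 0% of all genes were called, and Fgfr3 alone of the 9 had an unadjusted p under 0.05 (0.33, adjusted p = 0.6), where 8.3% of all genes had one. The effect of 1 µM at 24 h minus that at 3 h was called in 0.0359% of all genes and in none of the 9, in edgeR and in DESeq2. Of the 9, Dlx5 had the only unadjusted p under 0.05 there (-0.54, adjusted p = 0.9999), where 3.44% of all genes had one.

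Within groups, 4 of the genes were split by replicate number. Sp7, Panx3, Alpl and Ibsp were higher in both replicates 1 and 2 than in both replicates 3 and 4 in 5 of the 6 groups, the exception being the controls at 24 h. Of 16691 genes with enough counts, 2.84% were so ordered in at least 5 groups. The ratio of the mean of replicates 1 and 2 to that of replicates 3 and 4 was 1.25 to 1.53 for Sp7, 1.29 to 2.16 for Panx3, 1.12 to 2.08 for Alpl and 2.34 to 29.1 for Ibsp. For Ibsp it was 25.8, 15.2 and 29.1 at 3 h with 0, 1 and 10 µM, and 2.34, 5.07 and 5.77 at 24 h. Runx2 and Col10a1 showed the same order in all 6 groups, with ratios of 1.2 to 1.57 and 1.91 to 7.61. Mef2c, Dlx5 and Dlx6 showed it in 1, 0 and 0 groups, and Fgfr3 and Spp1 in 3 groups each. The summed chondrocyte markers were so ordered in 5 groups, with ratios of 0.963 to 1.49. Their exception was another group, 1 µM at 24 h (0.963), and their highest ratio was that of the controls at 24 h (1.49). What the replicate numbers stand for is not given in the labels. The part of this order in the results was not tested beyond the fits within replicate pairs and those with a replicate block or pair term.

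**Figure D4:**
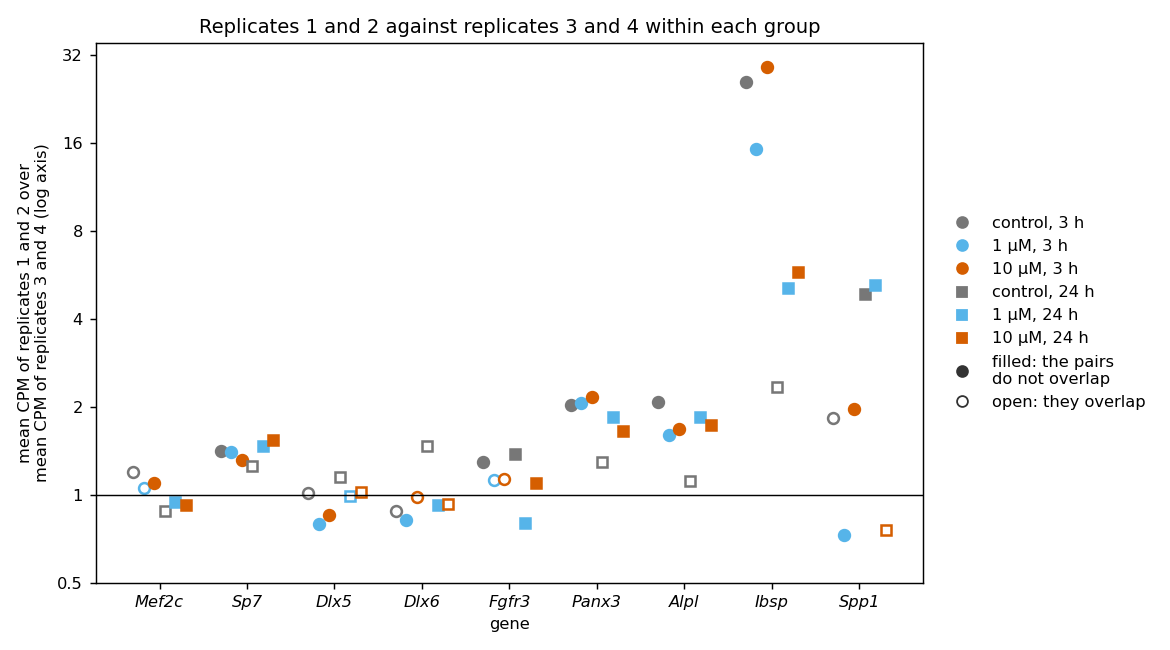
Ratio of the mean CPM of replicates 1 and 2 to that of replicates 3 and 4 in each of the 6 groups (vertical log axis), for each gene. Filled points are groups in which the pairs do not overlap, circles are 3 h and squares 24 h. Ibsp at 3 h reaches 15.2 to 29.1, and Mef2c, Dlx5 and Dlx6 stay between 0.791 and 1.47.

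The genes closest in pattern over the 24 libraries were found by the root mean square difference of log2 CPM, centred for each gene, among 16690 genes. The variation of the gene itself on the same scale is given for size. For Sp7 the nearest were Runx2 with 0.25 and Airn with 0.27 (own variation 0.45). For Panx3 they were Smpd3, a sphingomyelinase active in mineralizing matrix, with 0.23 and Prelp, a proteoglycan, with 0.27 (own variation 0.96). For Alpl they were Aspn, asporin, with 0.27 and Mgp, matrix Gla protein, with 0.30 (own variation 0.75). For these 3 genes the differences lay below the gene's own variation, and the same held for each of the other genes described below. The neighbours were picked as the nearest among 16690 genes, so small differences follow in part from that choice.

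Ibsp was nearest to Slc13a5, a citrate transporter, at 1.41 and Col10a1 at 1.45 (own variation 3.15). Spp1 was nearest to Fibcd1 at 0.80 and Adhfe1 at 0.81 (own variation 1.37). Mef2c was nearest to Actc1, the cardiac actin that embryonic muscle also makes, at 0.16 and Rtn2 at 0.16 (own variation 0.50). Among the genes nearest to Dlx5 was Tiam1 at 0.18 (own variation 0.25). Those of Dlx6 were Nipal3 at 0.25 and Ppp1r35 at 0.27 (own variation 0.38). Those of Fgfr3 were Tmem63a at 0.17 and Tenc1 at 0.20 (own variation 0.54). Panx3 and Alpl differed from each other by 0.41, which placed Alpl at rank 22 for Panx3 and Panx3 at rank 45 for Alpl. All these values share the same libraries and their replicate order, and they carry no test.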

How the data were processed

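The 24 libraries were 4 replicates of each of 6 groups, assigned by the sample labels. The deposited tables hold raw read counts per gene, with gene lengths, per the file headers; CASAVA 1.8, STAR 2.5, HTSeq 0.6.1, DESeq2 and the mouse build mm10 are named in the submitters' processing notes, with no role given. The authors' deposited comparison tables give log2 fold changes and p-values, which are used only in the closing observations. Whether counting used the strand is not given in the sources used here.

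Counts from the 5 tables were joined by gene identifier. The 16 repeated library columns held 0 differing counts, and 34232 values absent from every table of a library were set to 0. A further 50 columns of normalized values or group means were not used. Total counts ran from 14165947 to 20823058. CPM was the count divided by this total. Levels per kilobase used the deposited gene length.

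Differences were tested with edgeR 4.0.16 (R 4.3.3, limma 3.58.1), with the robust quasi-likelihood fit, TMM scaling, filterByExpr (minimum count 10, minimum total 15) and Benjamini-Hochberg adjustment over all genes tested. Each of 7 comparisons of 2 groups used its 8 libraries, and 4 contrasts (10 against 1 µM at each time, and each dose's effect at 24 h minus at 3 h) used all 24. The scripts were tested on simulated data. Tables were summarised with pandas 2.3.3 and numpy 2.4.6. Alternatives were DESeq2 1.42.0, other scaling, no filter, other sets of libraries, replicate terms, replicate pairs alone and leaving out each library.

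The members and lists were chosen with earlier results of these data known. The text names all 9 members; Runx2, Col10a1, Runx3, Ihh and Pth1r; up to 4 other called genes of mineralizing tissue per comparison, by size of change (and, outside this rule and after its value was seen, Msx2); family relatives; the first 2 markers of a list and up to 2 called ones; and the 2 nearest genes in pattern, of which 1 is not reported here. In 6 of the 7 comparisons of 2 groups, all 4 same-numbered pairs deviated together from their group means (correlations over genes of 0.106 to 0.361), so the number was taken to pair them. The fits as planned held no replicate term and so left this pairing out. Fits with the number as a block are given as alternatives. From 3 to 24 h in controls 3 of 4 pairs did.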

Additional observations from a re-analysis of the deposited data

Results flagged for a closer look

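In 5 of the 54 sets of 4 libraries (9 genes in 6 groups) 1 library lay far from the other 3, by the 95% critical value of Dixon's test. Chance gives this in about 1 in 20 groups. Mef2c reached 260.5 CPM in replicate 3 with 1 µM at 24 h. Sp7 reached 15.5 CPM and Spp1 5.53 CPM in replicate 1 with 10 µM at 3 h. Dlx6 was at 2.56 CPM in control replicate 3 at 24 h and at 5.17 CPM in replicate 4 with 1 µM at 24 h. For Dlx5 the effect of 10 µM at 24 h differed from that at 3 h by -0.73 on the log2 scale, which passed the test of the difference itself.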

How the results depend on the processing

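Over 99 gene results and 1826 alternatives no direction was reversed among called results, 63 alternatives lost a call and 34 gained one. For 10 µM at 24 h, 2 of the 9 genes were called in the fit as planned, 1 with no scaling factors, 4 with the replicate block and 0 within replicates 1 and 2; leaving out 1 library gave 0 to 2, with 0 without any of the 10 µM libraries and 1 without control replicate 1, 3 or 4. Within replicates 3 and 4 alone, Dlx5 lost its call with 10 µM at 24 h, and Sp7 and Alpl gained one. A term for replicates 1 and 2 against 3 and 4 gained Alpl there (adjusted p = 0.0267). For 1 µM at 24 h, 0 were called and 1 (Alpl) within replicates 3 and 4. From 3 to 24 h in controls, 4 were called, 7 with DESeq2, 7 with the pair (replicates 1 and 2, or 3 and 4) as a term, 0 within replicates 1 and 2, and 3 to 4 with 1 library left out. DESeq2 called 2164 of all genes there, against 852 higher and 642 lower as planned. Within replicates 3 and 4 none of the 4 lost its call, and Panx3 and Ibsp gained one. With 1 µM the time comparison called 6, and 3 to 6 with 1 library left out, the fewest without replicate 3 or 4 at 3 h or replicate 1 at 24 h. With 10 µM it called 6, and 5 to 7 with 1 library left out. Between 10 and 1 µM at 24 h, 0 were called, and 1 (Fgfr3) with only those groups in the fit. The change of the 10 µM effect over time called 1, 0 within either pair of replicates, and 0 to 1 with 1 library left out. The cause of these shifts was not tested, and either pair leaves only 4 libraries in a comparison of 2 groups. The remaining counts with 1 library left out were 0.

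With the replicate block the counts were 5 with 1 µM and 7 with 10 µM over time, with Spp1 lost and Ibsp gained. Of all genes it called 3658 with 1 µM, against 1886 higher and 1531 lower as planned. With 10 µM it called 5450, against 2590 higher and 2307 lower. The block changed no call of the 9 genes in other paired comparisons beyond Sp7 and Alpl. In controls over time, where the numbers were not taken to pair, the block gave 5 calls, with Spp1 gained (adjusted p = 0.047), and 2015 calls among all genes. There 2 of 4 pairs correlated best with their own number. In the comparisons taken as paired this was 0 of 4 for 10 µM over time, 1 of 4 for 1 µM over time and for 10 µM at 3 h, 3 of 4 for the higher dose at 24 h and the lower one at 3 h, and 4 of 4 for the lower dose at 24 h. Low counts limit Ibsp most, with 12 and 6 in control replicates 3 and 4 at 3 h and a lower CPM still in replicate 3 with 10 µM.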

Other observations

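The fold changes in the authors' deposited table were smaller than the ones fitted here for the most variable genes. From 3 to 24 h in controls the authors' deposited table gives Ibsp a log2 fold change of 0.58 (adjusted p = 0.0575), where the edgeR fit of the same counts gave 4.28 (adjusted p = 0.0735). For Spp1 the authors' deposited table has 0.78 (adjusted p = 0.03) and the edgeR fit 2.26 (adjusted p = 0.106). For Panx3 the authors' deposited table has 0.90 (adjusted p = 0.0104) and the edgeR fit 1.45 (adjusted p = 0.0506), so both genes pass 0.05 in that table and not in the fit. For 10 µM at 24 h the authors' deposited table has values close to the fit for the steadier genes, with -0.49 for Dlx5 (adjusted p = 0.0119) and 0.45 for Fgfr3 (adjusted p = 0.00196), where the fit gave -0.55 and 0.48.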
